A study of Mus musculus with 13 samples.

Results

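The 10 genes described here are targets of the glucocorticoid receptor (GR, encoded by Nr3c1) that carried receptor peaks in wild-type mouse embryonic fibroblasts and none in cells with a mutant receptor. They are Zbtb16, Hif3a, Lpin1, Glul, Irs2, Ddit4, Cish, Rgs2, Lcn2 and Arl4d, out of 8726 genes with a peak in at least 1 of the 7 deposited lists. Every peak whose annotated gene symbol equals a member was taken, which gave 25 of 26052 peaks. The members were chosen by the measured values themselves, the presence of wild-type and absence of mutant peaks, so their counts per genotype are a description and carry no test.

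GR was mapped by chromatin immunoprecipitation and sequencing with 1 commercial antibody in fibroblasts grown for 7 days from male C57BL/6 embryos of day 13.5, after removal of the head and internal organs. Such cultures hold cells of several embryonic tissues, and peak positions give no expression value by which the cell type or the genotype could be checked. Dexamethasone (Dex), a potent agonist of the receptor, was given at 1 µM for 16 h. In 3 GR wt/wt, 4 GR Zn/Zn and 2 GRKO/KO libraries it was joined by lipopolysaccharide (LPS), a bacterial stimulus of inflammatory signalling, for 3 h at a labelled dose of 100 ng/µl. Another 2 GR wt/wt and 2 GR Zn/Zn libraries received Dex without LPS. GR Zn/Zn is the zinc mutant and GRKO/KO the receptor knockout. No group without Dex was included.

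The Dex+LPS libraries were deposited as 3 merged lists without knockout peaks, with 18953 peaks in the wild-type-specific, 3533 in the shared and 2187 in the mutant-specific list, and a fixed peak width of 200 bp. Each Dex library had its own list. The wild-type lists held 412 and 854 peaks, and the mutant lists 53 and 60. The lists give positions and no height or read count, so the depth behind a peak is unknown. Chromosomes 10 to 14, on which Ddit4, Arl4d and Lpin1 lie, carried 68.2% and 73.9% of the peaks in the wild-type Dex lists. In the mutant Dex lists they carried 26.4% and 31.7%.

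Bound by a glucocorticoid, GR enters the nucleus and can bind DNA as a dimer at a palindromic element, a pair of hexamers spaced by a few bases, through the zinc fingers of its DNA-binding domain. It can also be drawn to chromatin by other factors such as AP-1 and NF-kB. Many of its classic targets restrain growth or cytokine signalling or redirect fuel use, and in fibroblasts several serve as markers of the hormone response.

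Sequence was at hand for the starts of 9 of the 10 members, all but Zbtb16, as RefSeq windows of 300 bases (build GRCm38.p6, 250 before the start to 50 after it). The Lcn2 and Glul windows are shown because these are the members with a peak centred within 1 kb of the start as assigned by the authors. They are also the members whose window held the core of the palindromic GR element, ACANNNTGT, which is marked in capitals. Both are written 5′ to 3′ in the direction of transcription, Lcn2 from the minus strand (chr2:32387690-32387989) and Glul from the plus strand (chr1:153899679-153899978).
Lcn2: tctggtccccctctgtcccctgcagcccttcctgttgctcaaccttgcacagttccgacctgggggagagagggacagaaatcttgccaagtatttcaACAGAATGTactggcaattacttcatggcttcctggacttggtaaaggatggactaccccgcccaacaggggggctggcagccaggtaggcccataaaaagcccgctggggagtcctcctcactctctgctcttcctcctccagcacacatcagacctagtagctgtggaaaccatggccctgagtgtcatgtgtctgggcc
Glul: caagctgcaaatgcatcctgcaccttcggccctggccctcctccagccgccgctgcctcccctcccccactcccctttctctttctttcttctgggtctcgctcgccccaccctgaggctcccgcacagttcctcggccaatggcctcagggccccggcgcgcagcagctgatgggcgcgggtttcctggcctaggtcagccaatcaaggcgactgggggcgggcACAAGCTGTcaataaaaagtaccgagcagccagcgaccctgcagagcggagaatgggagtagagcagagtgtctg

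In the Lcn2 window the core ACAGAATGT lay 152 to 144 bp before the start. The wild-type-specific peak covered the first 30 bases of the window, and 68 bases separated its edge from the core. In the Glul window the core ACAAGCTGT lay 25 to 17 bp before the start, with 122 bases between it and the nearer Glul peak. Neither core was therefore under a 200 bp peak.

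The core was present in 6.85% of all 32851 RefSeq windows and in 6.48% of the 1081 windows that a wild-type-specific peak overlapped, against 2 of the 9 member windows. The longer element, which adds a G 2 bases before the core and a C 2 bases after it, was found in 0 of the 9 member windows, in 0.475% of all windows and in 0.925% of the overlapped ones. With 1 mismatch allowed it was found in 2 of the 9, in 9.43% of all windows and in 9.99% of the overlapped ones. These 2 were again the Lcn2 and Glul windows, whose cores each had 1 of the 2 flanking bases. The AP-1 motif TGANTCA (7.81% of all windows) and the NF-kB motif GGANTTTCC (1.25%) had no match in a member window. Both strands were searched for each motif.

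The STAT motif TTCNNNGAA, found in 8.30% of all windows, occurred in 1 member window, that of Cish, with 2 matches (TTCCTGGAA and TTCTTGGAA) at and just past the gene start. Cish is a known target of STAT factors. No peak of any list overlapped this window. The hexamer AGAACA, one arm of the GR element (19.0% of all windows), matched in the Lpin1 window alone. It lay 163 to 158 bp before the RefSeq start on which that window is drawn. RefSeq extends Lpin1 to 16653903, whereas the Dex+LPS lists place its start at 16589770, from which its peak distances below are counted.

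Under Dex+LPS the members carried 20 peaks of the wild-type-specific list, 0 of the shared and 0 of the mutant-specific list. A mutant peak was missing at 65.6% of the 8294 genes bound in the wild type, so the absence that defines the members was the common case. Zbtb16 had 7 peaks. Hif3a, Lpin1, Glul and Irs2 had 2 each, and Ddit4, Cish, Rgs2, Lcn2 and Arl4d had 1 each. The median was 1.5 peaks per member, beside 2 over the 7696 genes with a wild-type-specific peak and 1 over the 5442 genes that had such peaks and no mutant peak. Among these 5442 genes 2.28% had 7 or more peaks, as Zbtb16 did.

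**Figure D1:**
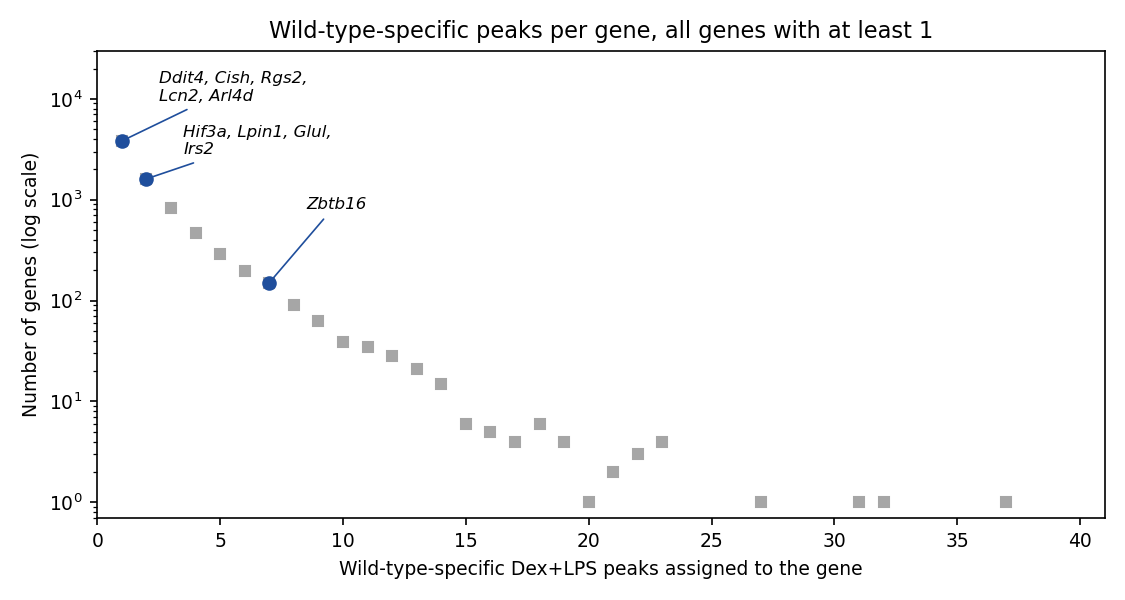
Number of genes (log scale) by the number of wild-type-specific Dex+LPS peaks assigned to them, for genes with up to 40 peaks (3 genes lie beyond). The circles mark the members: Zbtb16 stands at 7 peaks, and the other members stand at 1 or 2, the most common values.

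Of the 20 member peaks 11 lay inside the gene (55.0%, exact 95% interval 31.5 to 76.9%), 8 downstream of it and 1 upstream, and none overlapped a gene start. Over all wild-type-specific peaks 47.6% lay inside the gene, 23.5% downstream, 26.6% upstream and 2.02% on a start. Within 5 kb of the start were 5 of the 20 (25%, interval 8.66 to 49.1%), against 17.1% of all. These 5 belong to Glul, Hif3a and Lcn2. The median distance was 47.5 kb for member peaks and 42.3 kb for all. For the 10201 peaks of genes with wild-type-specific and no mutant peaks it was 27.3 kb, with 22.8% within 5 kb of the start. Over 50 kb away lay 9 of the 20 member peaks (45.0%, exact 95% interval 23.1 to 68.5%), 35.8% of those 10201 peaks and 46.3% of all. Distances are from the peak centre to the gene start. The intervals cover counting error only, and 7 of the 20 peaks belong to Zbtb16, so the peaks are not independent.

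Among the transcription factors, Zbtb16 (also known as PLZF), a zinc finger repressor that glucocorticoids induce in many tissues, was the member with most peaks. All 7 lay inside its 182 kb gene (chromosome 9, 48654297 to 48836222, minus strand), between 48.7 and 112 kb from the start. They spanned 63.8 kb. The 5 farthest from the start fell within 21.5 kb, with gaps of 12527, 845, 2457 and 4675 bp. The other 2 stood nearer to the start, 30429 bp from the closest of these 5 and 11510 bp from each other. Long genes reached such a count more often: of the 790 genes of 100 to 300 kb with wild-type-specific and no mutant peaks, 6.46% had 7 or more, beside the 2.28% over such genes of any length (not tested).

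Hif3a, a hypoxia-inducible factor subunit of which some forms dampen the hypoxic response, had its 2 peaks inside the gene (chromosome 7, 17030993 to 17062427, minus strand). They lay 2.29 kb (17060042 to 17060241) and 3.81 kb (17058523 to 17058722) from the start, with 1319 bp between them. No other Dex+LPS peak came within 50 kb of the Hif3a start.

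The metabolic members differed in where their peaks lay. Glul encodes glutamine synthetase, which makes glutamine from glutamate and ammonia. Its peaks were inside the gene (chromosome 1, 153899929 to 153909723, plus strand), and their edges lay 106 bp (153900035 to 153900234) and 1546 bp (153901475 to 153901674) past the start. These were the peaks of a member nearest to its start on the transcribed side.

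Irs2, an adaptor that carries the signal of the insulin receptor, had peaks 30.6 and 46.3 kb from its start, both downstream of the gene (chromosome 8, 10986961 to 11008430, minus strand). These were 2 of 12 wild-type-specific peaks within 100 kb of the Irs2 start, the most around any member. The nearest of the 12 lay 889 bp upstream (11009220 to 11009419) but was assigned to the neighbouring transcript 9530052E02Rik, as were 5 others further upstream. In RefSeq the Irs2 gene extends to 11008929, so its start there is closer to this nearest peak. No shared or mutant-specific peak lay within 100 kb.

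Lpin1 encodes lipin 1, a phosphatidate phosphatase of triglyceride synthesis that also acts in the nucleus. Its 2 assigned peaks were far downstream of the gene (chromosome 12, 16535669 to 16589770 in the Dex+LPS lists, minus strand), 231 and 317 kb from the start. A further wild-type-specific peak, at 16624591 to 16624790, lay 34.9 kb upstream of that start and was assigned to Ntsr2. The RefSeq gene extends to 16653903 and so contains this further peak, whereas the list of Dex library 2 ends the gene at 16610966. The peaks that the annotation gives to Lpin1 are thus not the nearest to it.

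The members that restrain growth, cytokine or G protein-coupled receptor signals had 1 assigned peak each, all downstream of their short genes. Ddit4 (REDD1), an inhibitor of the growth kinase complex mTORC1, had a peak 8.21 kb from its start (chromosome 10, 59943459 to 59943658). Within 50 kb of the start there were 6 further wild-type-specific peaks, 4 assigned to Dnajb12 and 2 to Anapc16. A shared peak lay 42.2 kb away (59909518 to 59909717), among those assigned to Dnajb12. Ddit4 is thus a member with a peak of the mutant cells nearby, although none was assigned to it.

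Cish, a SOCS-family inhibitor of cytokine receptors and STAT signalling, had its peak 16.4 kb past the start (chromosome 9, 107312946 to 107313145). Another 2 wild-type-specific peaks within 50 kb were assigned to Mapkapk3. Rgs2, which shortens signals of G protein-coupled receptors, had its peak 74.1 kb from the start (chromosome 1, 143929929 to 143930128). It was the only member with no peak of the 3 merged lists within 50 kb of its start.

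Lcn2, a secreted protein of innate defence that binds bacterial siderophores, had its peak at the promoter, with the edge 221 bp upstream of the start (chromosome 2, 32387960 to 32388159). Of the 7 wild-type-specific peaks within 100 kb, 6 were assigned to Dnm1, Ciz1, Slc25a25 or Naif1. A shared peak lay 36.2 kb upstream (32423799 to 32423998), and 2 mutant-specific peaks lay 76.9 kb upstream and 86.2 kb downstream. Lcn2 was the only member with a mutant-specific peak within 100 kb.

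Arl4d, a small GTPase of the ARF-like family, had its peak 22.1 kb past the start (chromosome 11, 101687539 to 101687738). A wild-type-specific peak assigned to Rdm1 lay at the same distance upstream, 22.1 kb (101643322 to 101643521). A shared peak lay 60.6 kb upstream.

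**Figure D2:**
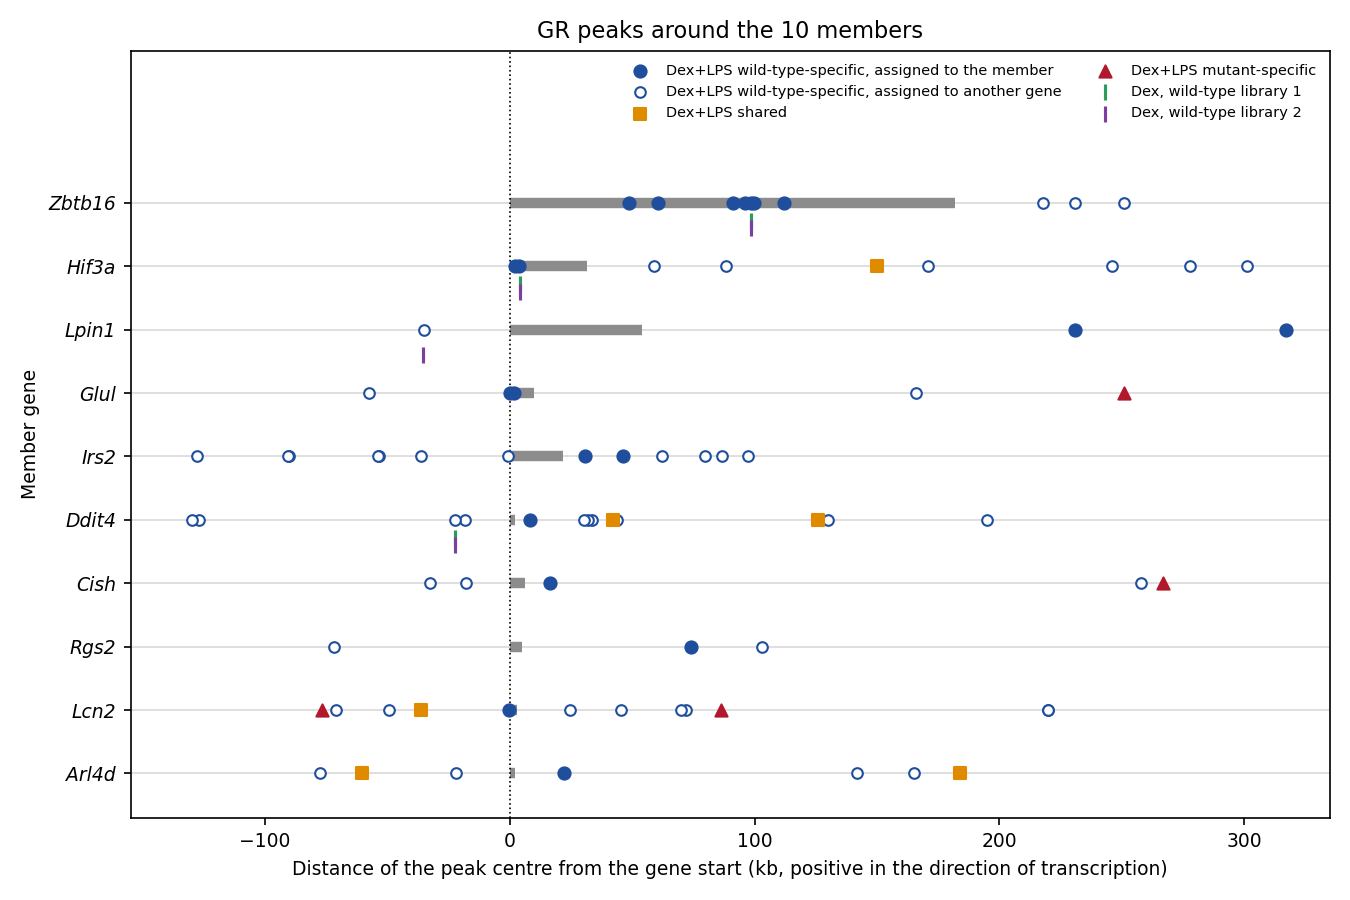
Peaks around the 10 members by the distance of the peak centre from the gene start (kb, positive in the direction of transcription), from 150 kb upstream to 330 kb downstream. Grey bars are the genes as the Dex+LPS lists give them, and ticks under a line are peaks of the wild-type Dex libraries. Filled circles are the 20 assigned peaks, open circles those of other genes, and shared and mutant-specific peaks appear within 100 kb at Ddit4, Lcn2 and Arl4d.

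Counted by distance in place of the assigned gene, mutant peaks (shared or mutant-specific) were within 10 kb of the start at 0 of the 10 members, within 50 kb at 2 (Ddit4 and Lcn2) and within 100 kb at 3 (also Arl4d). Of the 5442 genes with wild-type-specific and no mutant peaks, 2.46%, 12.5% and 26% had a mutant peak within these distances. The members' counts stood near that background. The nearest mutant peak was between 36.2 kb (Lcn2) and 2310 kb (Rgs2) away, with a median of 210 kb, beside 230 kb over the 5442 genes. At Zbtb16 it was 698 kb and at Lpin1 594 kb away.

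**Figure D3:**
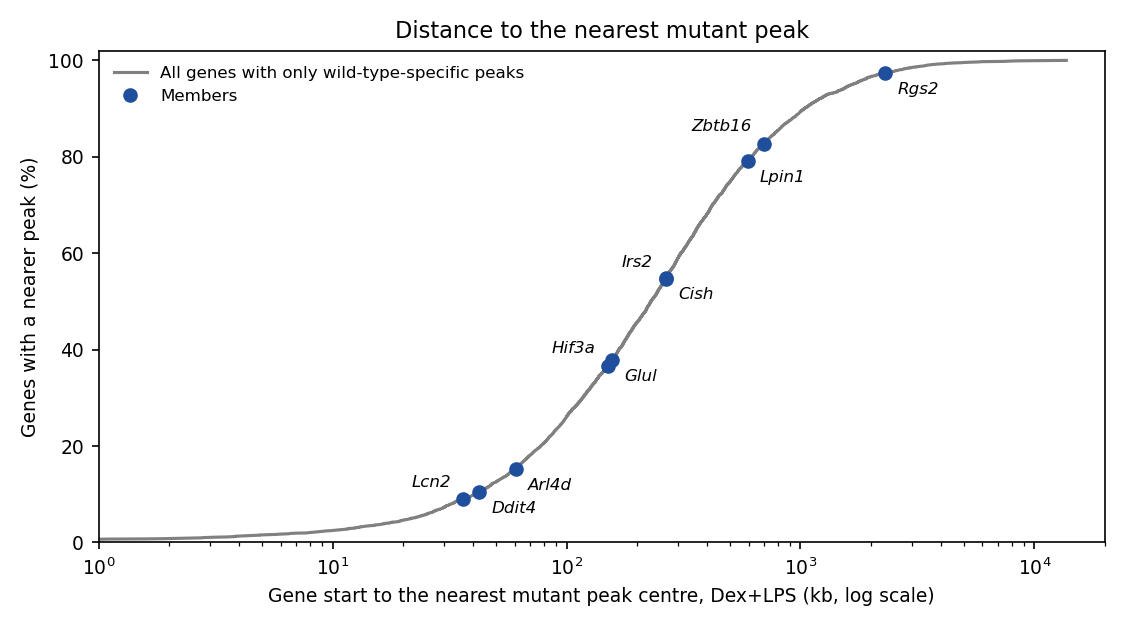
Distance from the gene start to the nearest mutant peak under Dex+LPS (kb, log scale) against the percentage of genes with a nearer peak. The grey line is all genes with wild-type-specific and no mutant peaks, on which the members are placed by their own distance. The members run from Lcn2 at 36.2 kb, where 8.97% of genes have a nearer peak, to Rgs2 at 2310 kb, where 97.4% do.

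Wild-type-specific peaks were more numerous than the assignment shows, around the members and around the 5442 genes alike. Those genes had 10201 assigned peaks and, counted gene by gene, 16457 within 100 kb of the start. The share assigned to other genes was not counted for them. Within 100 kb of the 10 member starts there were 48, of which 31 were assigned to other genes, beside 3 shared and 2 mutant-specific peaks. This was 4.80 wild-type-specific peaks per member (median 3.5), beside a mean of 3.02 and a median of 3 over the 5442 genes, with 12 of the 48 at Irs2. Shared and mutant-specific peaks averaged 0.300 and 0.200 per member, beside 0.296 and 0.195. All 10 members had a wild-type-specific peak within 100 kb, as did 93% of the 5442 genes. Within 10 kb there were 7, at the 5 members Hif3a, Glul, Irs2, Ddit4 and Lcn2, beside 49.2% of the 5442 genes with at least 1. The counts of members with such a peak stood near these shares.

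Under Dex alone, Zbtb16 and Hif3a had a peak in both wild-type libraries, Lpin1 in library 2 alone, and the other 7 members in neither. All members but Ddit4, Arl4d and Lpin1 lie outside chromosomes 10 to 14, which carried most peaks of both wild-type Dex lists. Member peaks numbered 2 in wild-type library 1, 3 in wild-type library 2 and 0 in each mutant library. Of the 5442 genes with wild-type-specific and no mutant Dex+LPS peaks, 2.44% had a peak in either wild-type Dex library, 0.698% in both and 0.202% in either mutant library. The rule reads the Dex lists too, so nothing is read from these counts. The mutant lists are short, and the nearest mutant Dex peak was between 0.619 Mb (Zbtb16) and 117 Mb (Lcn2) from a member's start. Whether these 4 libraries stem from different cultures or embryos is not stated in the labels.

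The Zbtb16 peak recurred at the same place. It ran from 48737440 to 48737716 in library 1 and from 48737478 to 48737719 in library 2. Both covered all 200 bp of 1 Dex+LPS peak (48737512 to 48737711), among the 5 farthest from the start. The other 6 Zbtb16 peaks had no Dex peak. Of all 18953 wild-type-specific peaks, 0.306% overlapped a peak of library 1, 0.485% one of library 2 and 0.0950% both (18 peaks).

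At Hif3a the Dex peaks lay beside the Dex+LPS peak. They ran from 17058227 to 17058489 in library 1 and from 17058188 to 17058492 in library 2 and overlapped each other by 263 bp. Gaps of 33 and 30 bp separated them from the Dex+LPS peak that begins at 17058523, whose centre was 264.5 and 282.5 bp from theirs. By an overlap of at least 1 bp with a peak of either wild-type library, 1 of the 20 member peaks was found under Dex (5.00%, exact 95% interval 0.127 to 24.9%). Over all 18953 wild-type-specific peaks this share was 0.696%. With centres allowed to differ by 500 bp there were 2 member peaks, with no share over all peaks at hand. The rule reads the Dex lists too, so nothing is read from these counts.

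The Lpin1 peak of library 2 (16625068 to 16625295) lay 277 bp from the Dex+LPS peak that the annotation gave to Ntsr2. These peaks did not overlap, and their centres lay 491 bp apart. The Dex peak was assigned to Lpin1 and the Dex+LPS peak to its neighbour, by lists that end Lpin1 at different positions. Ddit4 had no assigned Dex peak, yet a site 22.5 kb upstream of it, assigned to Anapc16, had one in both wild-type libraries (59974132 to 59974386 and 59974130 to 59974361). It covered 200 and 175 bp of a Dex+LPS peak (59974187 to 59974386). Counted by distance, 4 members had a wild-type Dex peak within 100 kb, 3 of them in both libraries. Of the 5442 genes with wild-type-specific and no mutant Dex+LPS peaks, 3.05% and 1.05% did. The rule's use of the Dex lists holds for these counts too, and nothing is read from them.

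**Figure D4:**
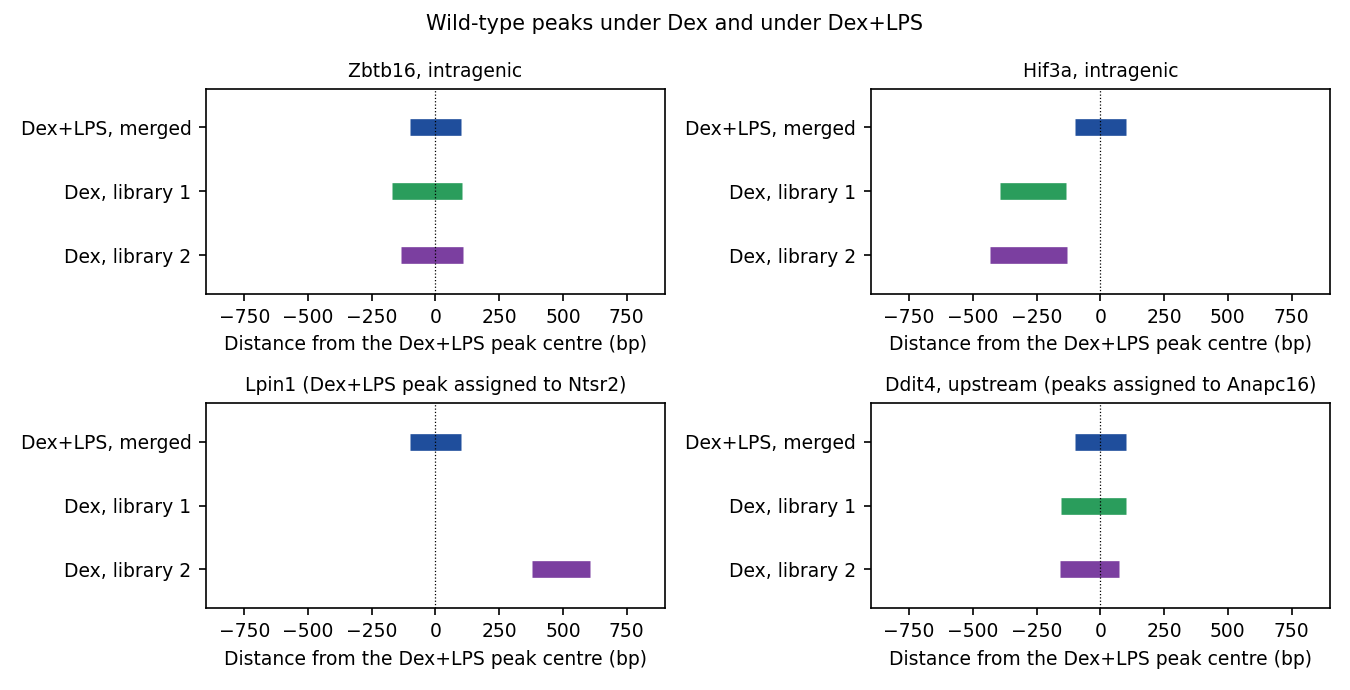
Wild-type peaks under Dex+LPS (merged list) and in each Dex library at 4 sites, as bars from peak start to peak end relative to the centre of the Dex+LPS peak (bp, along the chromosome). The bars overlap at Zbtb16 and at the site upstream of Ddit4, and stand apart by 33 and 30 bp at Hif3a and by 277 bp at Lpin1, where library 1 had no peak.

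Presence and absence over the 7 lists was the same as at Zbtb16 for 32 genes that are not members, and for Hif3a. The 8 of the 32 with most wild-type-specific peaks were Mtpn (8 peaks), 4930526H09Rik, A830082K12Rik and Klf13 (7 each), Adra1b, Lrrc4c and Slitrk1 (6 each) and Cenpw (5). Of these, Klf13 and Adra1b had a Dex+LPS peak that overlapped a Dex peak, as Zbtb16 did. At 4930526H09Rik, A830082K12Rik and Slitrk1 the library 1 peak was not found in library 2. Of the 8 genes 5 lie on chromosomes 10 to 14.

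Among 46 other known GR targets, 32 had a wild-type peak under Dex+LPS, and 12 of these (37.5%) had no mutant peak. That share is lowered by leaving out the 10 members, which were chosen for having none. With the members added it was 22 of 42 (52.4%), beside 65.6% over all genes. Adding them raises the share by the same choice, so neither share is an estimate for known GR targets. The 12 include Dusp1, a MAP kinase phosphatase, with 11 wild-type-specific peaks and no Dex peak. The remaining 20 had a mutant peak too. In the merged lists 3 of the 46 had mutant peaks alone, and 11 had no peak. Sgk1, a kinase of salt transport, had 11 peaks of the wild-type-specific class, 1 shared and 1 mutant-specific. The transcriptional repressor Bcl6 had 8, 1 and 1, the AMP deaminase gene Ampd3 8, 2 and 0, and the receptor chaperone gene Fkbp5 15, 1 and 0.

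A peak in both wild-type Dex libraries was present at 4 of the 46, namely Fkbp5, Per1, Cdkn1a and Slc7a11. Per1, a clock gene, had 1 wild-type-specific and 1 shared Dex+LPS peak, and Slc7a11, a cystine transporter, had 7 and 1. The cell cycle inhibitor Cdkn1a had 3 shared and 4 mutant-specific peaks but none of the wild-type-specific class. Each of these 4 thus had a shared peak, unlike Zbtb16 and Hif3a, whose lack of one was a condition of their choice. None of the 46 had a peak in a mutant Dex library, but those lists held only 53 and 60 peaks. No share over all genes stands beside these Dex counts, and nothing is read from them.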

How the data were processed

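Per the labels, GR was immunoprecipitated in 13 libraries of 5 groups. Build mm10 and the tools MACS2 2.1.0, BWA 0.7.13 and Picard 1.119 stand in the submitters' processing notes, with no role for each. Per the file names, the authors merged the Dex+LPS libraries by genotype, removed knockout peaks and thresholded the Dex lists by false discovery rate. The sources used here do not give how they merged and annotated. The deposited values are positions, widths and distances in bp, with no score, so the depth is unknown and no stricter threshold could be set. The length of a list may therefore also reflect how many libraries, and how many reads, went into it.

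Member peaks were taken by the authors' gene symbol. Overlap meant at least 1 bp and was checked on 500 simulated intervals against bedtools 2.31.1, with 0 disagreements. Windows of 10, 50 and 100 kb run from the gene start to the peak centre. A mutant peak is a shared or a mutant-specific one. Intervals are exact (Clopper-Pearson, 95%). No test across samples was run, since the merged lists carry no replicates and the members were chosen on these contrasts. Promoter windows came from RefSeq. The sequence under the peaks was not used here, so the planned motif count in peaks was replaced by one in promoter windows. Gene identifiers matched the RefSeq table (GRCm38.p6) for at least 99.9% of peaks in each list.

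The members and the list of 46 other targets were chosen with earlier results of these data known. Named by rule were all members, other targets with peaks in both wild-type Dex libraries or with 8 or more wild-type-specific peaks, and the 8 genes of most peaks with the list pattern of Zbtb16. Alternatives were the gene assignment, the overlap rule and leaving out each Dex library. Software was scipy 1.17.1, pandas 2.3.3 and numpy 2.4.6 under Python 3.11.15, with matplotlib 3.10.9 for figures.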

Additional observations from a re-analysis of the deposited data

How the results depend on the processing

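The choice of gene assignment moved the counts most. By gene body in place of the assigned symbol, 11 wild-type-specific peaks at 3 members were counted, and 12 peaks at 4 members by the RefSeq gene body (chosen after seeing the data). Within 10 kb of the start there were 7 peaks at 5 members, and within 100 kb 48 peaks at all 10, against 20 peaks at 10 members as assigned. A mutant peak was at 0 members as assigned, inside either gene body and within 10 kb, at 2 within 50 kb and at 3 within 100 kb. Member peaks found under Dex numbered 1 with any overlap and with at least 50% of the Dex+LPS peak covered, and 2 with centres within 500 bp. Without wild-type Dex library 1 or 2, 1 member peak was found in each case, and 3 and 2 member genes had a Dex peak (2 with peaks found in both libraries). Without either mutant library 0 member genes had a mutant Dex peak. Motif counts in member promoters were 0 for the full element and 2, in the same windows, with 1 mismatch or with the core alone (chosen after seeing the data). No paired analysis was possible because the results come from no test. A stricter peak threshold and the motif search in peaks were not run, as the lists carry no score and no genome was used.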
